A study of Mus musculus with 8 samples.

Results

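Protein arginine methyltransferases transfer methyl groups from S-adenosylmethionine to arginine side chains of histones, splicing factors and other RNA-binding proteins. Described here are 8 of these enzymes, Prmt1, Prmt2, Prmt3, Carm1, Prmt5, Prmt6, Prmt7 and Prmt8, together with Wdr77, the partner protein of Prmt5. These 9 genes were taken from the deposited count table by their Entrez identifiers, out of 21950 genes in all.

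Type I enzymes (Prmt1, Prmt2, Prmt3, Carm1, Prmt6 and Prmt8) place both methyl groups on the same nitrogen of arginine and give asymmetric dimethylarginine. Prmt5 is the main type II enzyme and gives symmetric dimethylarginine, in a complex with Wdr77 that is called the methylosome, whereas Prmt7 is a type III enzyme that stops at monomethylarginine. In mouse primordial germ cells Prmt5 is known as a partner of Blimp1 (gene Prdm1), and symmetric dimethylarginine on Piwi proteins and on the helicase Ddx4 is bound by proteins with Tudor domains.

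Poly(A) RNA was measured in 4 libraries of d6PGCLCs and 4 libraries of E12.5 PGCs, each from a pool of sorted cells of an independent experiment. The d6PGCLCs resemble primordial germ cells and were derived in vitro from 1 female induced pluripotent stem cell line, BVSC-iPSC, which carries the reporters Blimp1-Venus and Stella-ECFP. They were collected at day 8 of the culture, which is day 6 of PGCLC induction. The paper's protocol sorted such cells either on both reporters or on SSEA1 and integrin β3. Which sort served these libraries is not stated. The E12.5 PGCs came from gonads of inbred C57BL/6J female fetuses and were sorted on SSEA1 and integrin β3, without a reporter. The groups thus differ in origin of the cells, stage and culture at once, and possibly in the sort. The parts of these in a difference cannot be told apart.

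The d6PGCLC libraries held 8054596 to 12024841 counted reads and the E12.5 PGC libraries 7991437 to 11166023, so that 3 counts, taken as the limit of detection in a library, corresponded to 0.249 to 0.375 CPM (counts scaled to a common total per library). All 11 germ cell markers examined were above that limit in both groups, with a summed level of 4799 to 5321 CPM in d6PGCLCs and 4940 to 5465 CPM in E12.5 PGCs. Within these sums the markers differed in opposite directions. Dazl had means of 37.7 and 1262 CPM and Ddx4 of 35.5 and 760 CPM, whereas Pou5f1 had 1632 and 980 CPM and Nanog 610 and 257 CPM. The 7 markers of gonadal soma in the table summed to 0.498 to 1.45 CPM and 3.16 to 7.89 CPM, and 6 of the 7 were at or under the limit in every d6PGCLC library. Of the E12.5 PGC libraries, replicate 4 held 99 counts of Y-linked genes where the 7 other libraries held 0, and replicate 2 had a median of 135.7 CPM over genes of the dissociation response, where the other E12.5 PGC libraries had 24.7 to 32.6. The 14 genes of that response summed to 1742 to 1830 CPM in d6PGCLCs and 2687 to 3898 CPM in E12.5 PGCs. Hspa8 alone had means of 1046 and 2139 CPM. The median over these genes was 45.2 to 55.6 CPM in the d6PGCLC libraries, above that of each E12.5 PGC library but replicate 2. Single genes went both ways. The heat shock gene Hspa1a was at 0.305 to 0.747 and 4.42 to 144 CPM, and Socs3 had means of 71.5 and 2.51 CPM. Summed markers were 20.5 to 34.4 and 15.0 to 28.6 CPM for blood and endothelium (6 genes, 3 and 2 of them at or under the limit throughout a group), 0.332 to 23.3 and 0.722 to 4.74 CPM for mesenchyme (5 genes, 2 and 1), and 6.67 to 9.19 and 11.9 to 17.3 CPM for epiblast-like cells and mesoderm (6 genes, 1 and 1). The part of other cells, of the dissociation response and of these libraries in the differences below was not tested. Values without E12.5 PGC replicates 2 and 4 are given where they change a call of the 9 genes or a count of a list.

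Per exonic length, Prmt1 was the most abundant of the 9 transcripts in both groups and Prmt8 was hardly detected. In d6PGCLCs the mean level in RPKM (CPM divided by exonic length in kilobases) was 341 ± 28.6 for Prmt1, 92.8 ± 4.78 for Prmt5, 89.1 ± 8.44 for Carm1, 82.0 ± 3.05 for Wdr77 and 46.7 ± 3.59 for Prmt3 (SD, n = 4). It was 21.4 ± 4.76 for Prmt7, 15.8 ± 2.41 for Prmt6, 3.81 ± 0.41 for Prmt2 and 0.0385 for Prmt8. The E12.5 PGCs gave the same order, with 380 ± 38.8 RPKM for Prmt1, 103.9 ± 4.68 for Prmt5, 87.6 ± 4.88 for Carm1, 84.4 ± 4.09 for Wdr77 and 76.5 ± 3.40 for Prmt3. There, Prmt7 stood at 28.0 ± 1.31, Prmt6 at 18.8 ± 1.41, Prmt2 at 2.96 ± 0.59 and Prmt8 at 0.0995. Some neighbours in this order did not differ beyond their spread over libraries, namely Prmt5 and Carm1, Carm1 and Wdr77, and Prmt7 and Prmt6 in d6PGCLCs, and Carm1 and Wdr77 in E12.5 PGCs. Prmt1 exceeded 99.6% of all genes of the table in each group, and Prmt5 exceeded 96.3% in d6PGCLCs and 96.9% in E12.5 PGCs. Each level rests on 1 transcript isoform, which the authors chose at random. Its length was 62.0% of the longest annotated transcript for Prmt1, 44.2% for Prmt3, 37.0% for Prmt7 and 41.0% for Wdr77, so that the order of the levels depends on that choice.

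**Figure D1:**
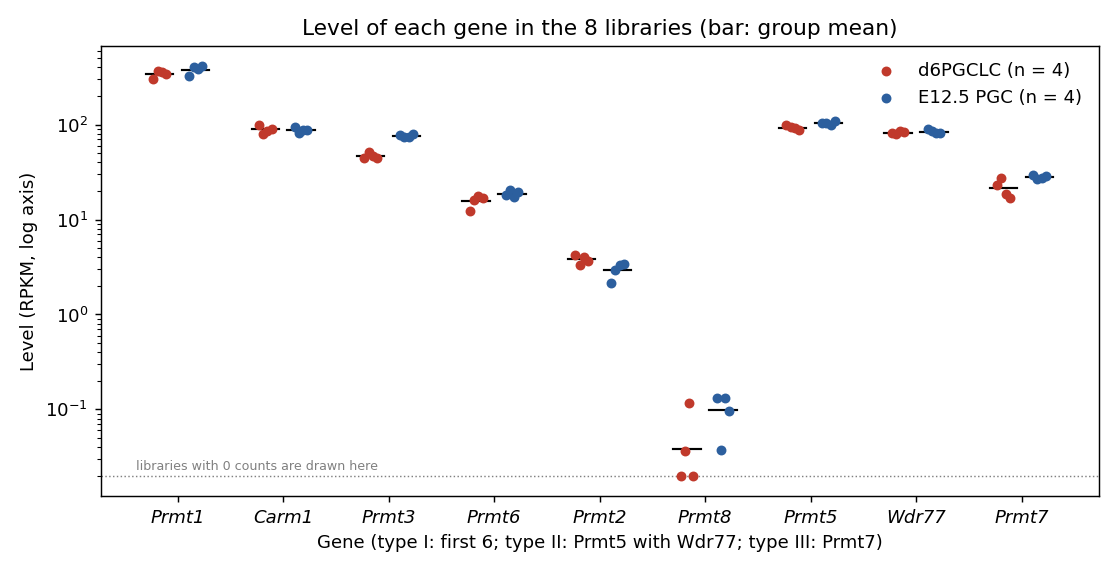
Level of each gene in RPKM on a log axis, with 1 point per library, d6PGCLCs in red and E12.5 PGCs in blue, and a bar at the mean of each group of 4. Prmt1 lies highest with means of 341 and 380 RPKM, Prmt3 is the gene whose point clouds stand clearly apart, and 2 d6PGCLC libraries without any Prmt8 count are drawn on the dotted line.

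The question of the comparison was which transcripts differ between germ cells made in culture and those of the embryo. With the quasi-likelihood test of edgeR, adjusted after Benjamini and Hochberg over all 21950 genes and read at 0.05, Prmt3 and Prmt7 fell in d6PGCLCs, 0 of the 9 genes rose, and 7 did not pass. Of all genes 31.5% passed, 16.1% higher and 15.4% lower in d6PGCLCs. Among the 8192 genes with a mean of at least 10 CPM, a level that 7 of the 9 genes reached, 28.4% were higher and 25.7% lower. None of the 9 passed with a log2 fold change of 2 or more in either direction, a size that 6.62% of all genes reached. The median log2 fold change of the 9 genes was -0.16, beside 0.00 over all genes and 0.01 over those with at least 10 CPM. The ranges of the 2 groups did not overlap for 2 of the 9 genes, Prmt3 and Prmt5, and for 30.2% of all genes or 51.9% of those with at least 10 CPM. In bulk libraries, a lower share of cells with a transcript and less transcript per cell cannot be told apart.

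**Figure D2:**
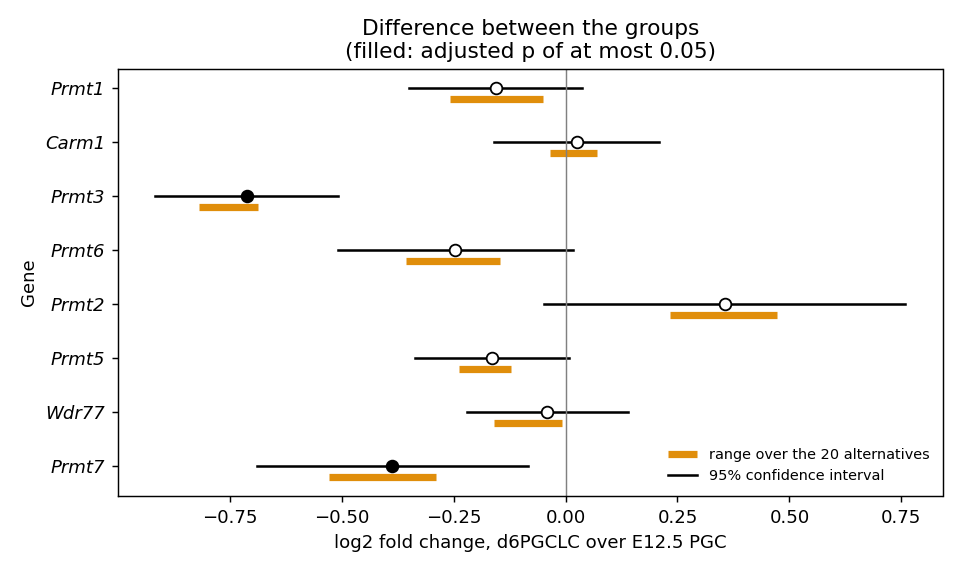
Log2 fold change of d6PGCLCs over E12.5 PGCs for 8 of the genes, with the 95% confidence interval as a black line, the range over 20 alternative settings as an orange bar, and filled circles for an adjusted p of at most 0.05. Prmt3 lies farthest from 0 with an interval from -0.92 to -0.51, and the interval of Prmt7 from -0.69 to -0.08 is wider and closer to 0. Prmt8 is left out because its counts were at the limit of detection.

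Promoters of the genes that fell, Prmt3 and Prmt7, and of Prmt5, the type II enzyme among the 9 genes, are shown so that their composition can be compared. They are the 250 bases upstream of the start that RefSeq gives on GRCm38.p6, at chr7:49778108-49778357 on the plus strand for Prmt3, chr8:106210804-106211053 on the plus strand for Prmt7, and chr14:54517471-54517720 on the minus strand for Prmt5. Other annotated starts of a gene can lie within its window, and the counted isoform may begin elsewhere. Each is written 5′ to 3′ along the gene, and capitals mark matches on either strand to CCAAT (the box bound by NF-Y), GGGCGG (the GC box bound by Sp1), TATAAA (the TATA box) and CACGTG (an E-box), none of which overlapped.
Prmt3: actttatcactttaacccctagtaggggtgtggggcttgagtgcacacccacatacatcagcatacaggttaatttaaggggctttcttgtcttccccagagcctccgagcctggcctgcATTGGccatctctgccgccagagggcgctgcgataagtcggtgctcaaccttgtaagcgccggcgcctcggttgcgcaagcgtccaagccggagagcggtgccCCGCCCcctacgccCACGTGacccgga
Prmt7: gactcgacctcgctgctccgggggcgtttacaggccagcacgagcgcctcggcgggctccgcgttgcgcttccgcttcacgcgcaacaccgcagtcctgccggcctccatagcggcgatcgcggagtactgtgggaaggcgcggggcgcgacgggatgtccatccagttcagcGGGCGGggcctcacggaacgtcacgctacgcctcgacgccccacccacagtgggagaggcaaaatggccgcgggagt
Prmt5: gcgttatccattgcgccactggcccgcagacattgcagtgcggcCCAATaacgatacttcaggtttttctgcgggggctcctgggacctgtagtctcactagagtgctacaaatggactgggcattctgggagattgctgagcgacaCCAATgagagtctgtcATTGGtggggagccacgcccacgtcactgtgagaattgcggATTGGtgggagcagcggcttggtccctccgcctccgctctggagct

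Of 27025 promoters of the same length, 34.5% held the CCAAT box, 32.9% the GC box, 13.0% the TATA box and 6.05% this E-box. The Prmt3 window held 1 match each of the CCAAT box, the GC box and the E-box, and that of Prmt7 held 1 GC box. The Prmt5 window held 4 matches of CCAAT, a number that 248 promoters (0.918%) reached. Observed over expected CpG was 0.751 in the Prmt3 window, 1.143 for Prmt7 and 0.622 for Prmt5. Over the 8 genes with an entry (all but Carm1) it ranged from 0.622 to 1.143, where the median of all promoters was 0.378 and 34.5% reached at least 0.6. No letter of these windows was tied to a difference between the groups.

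Among the type I enzymes, Prmt3 was the gene that fell. Prmt3 (Entrez 71974; chromosome 7, 49778319 to 49861264, GRCm38) encodes a mostly cytosolic enzyme whose known substrate is the ribosomal protein Rps2. Its level was 57.2, 67.3, 60.1 and 57.7 CPM in d6PGCLC replicates 1 to 4 and 101.9, 95.3, 95.7 and 104 CPM in E12.5 PGC replicates 1 to 4. Each d6PGCLC library lay below each E12.5 PGC library, with means of 60.6 ± 4.66 and 99.3 ± 4.41 CPM (SD, n = 4). The log2 fold change was -0.71 (SE 0.10, 95% CI -0.92 to -0.51), with an adjusted p of 5.63e-06 by the quasi-likelihood test of edgeR. Among genes with at least 10 CPM, 76.6% had a smaller absolute change. Leaving out any 1 library gave values from -0.77 to -0.69 with adjusted p from 1.8e-06 to 6.17e-05. Leaving out E12.5 PGC replicates 2 and 4 together gave -0.71.

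Prmt1 (Entrez 15469; chromosome 7, 44976755 to 44986420), the enzyme credited with most asymmetric dimethylarginine in mammalian cells, stood at 401, 486, 476 and 454 CPM in the d6PGCLC libraries and at 432, 537, 509 and 546 CPM in the E12.5 PGC libraries. Replicate 1 was the lowest of its group on both sides, and the groups overlapped. The means were 454 ± 38.0 and 506 ± 51.6 CPM, with a log2 fold change of -0.16 (95% CI -0.35 to 0.04, adjusted p = 0.245 by edgeR), so that the interval holds both 0 and a log2 fold change of -0.35. With an offset for transcript length Prmt1 passed (-0.26, adjusted p = 0.00652 by edgeR), whereas it was at -0.10 without d6PGCLC replicate 1 (adjusted p = 0.493) and at -0.051 without E12.5 PGC replicates 2 and 4 together (0.987).

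Carm1 (Entrez 59035; chromosome 9, 21546894 to 21589467), a coactivator that methylates histone H3 and the acetyltransferases Ep300 and Crebbp, differed least. It was measured at 386, 308, 333 and 349 CPM in d6PGCLCs and at 361, 315, 340 and 336 CPM in E12.5 PGCs. The highest and the lowest value were both from d6PGCLC libraries. The log2 fold change was 0.03 (95% CI -0.16 to 0.21, adjusted p = 1 by edgeR), and its sign turned with the scaling of the libraries, to -0.01 with library size alone.

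Prmt6 (Entrez 99890; chromosome 3, 110246104 to 110250999), which methylates arginine 2 of histone H3, was at 31.0, 40.2, 44.8 and 42.7 CPM in d6PGCLCs and at 45.4, 51.2, 43.2 and 48.7 CPM in E12.5 PGCs. Only d6PGCLC replicate 3 reached into the range of the E12.5 PGCs. The means of 39.7 ± 6.07 and 47.2 ± 3.54 CPM gave a log2 fold change of -0.25 (95% CI -0.51 to 0.02, adjusted p = 0.163 by edgeR), and Prmt6 passed with the length offset (-0.36, adjusted p = 0.0228 by edgeR). It was at -0.15 without d6PGCLC replicate 1 (adjusted p = 0.418 by edgeR) and at -0.16 without E12.5 PGC replicates 2 and 4 together (0.649). Prmt2 (Entrez 15468; chromosome 10, 76207226 to 76237865), an enzyme of weak activity known as a coactivator of nuclear receptors, was the gene with the highest positive value. Its level was 10.8, 8.55, 10.5 and 9.46 CPM in d6PGCLCs and 5.49, 7.68, 8.58 and 8.85 CPM in E12.5 PGCs. The groups overlapped by d6PGCLC replicate 2, and the log2 fold change of 0.36 (95% CI -0.05 to 0.76) did not pass (adjusted p = 0.195 by edgeR) and was 0.23 without E12.5 PGC replicate 1.

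Prmt8 (Entrez 381813; chromosome 6, 127689009 to 127769467), a membrane-bound enzyme known from neurons, had 0, 1, 4 and 0 counts in the d6PGCLC libraries and 3, 1, 4 and 3 counts in the E12.5 PGC libraries. With 5 and 11 counts in all, both groups were at or near the limit of detection, and a difference was not detectable at this depth.

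Prmt5 (Entrez 27374; chromosome 14, 54507182 to 54517470) differed by a small amount that did not pass the test. It was at 328, 311, 305 and 289 CPM in d6PGCLC replicates 1 to 4 and at 341, 344, 329 and 367 CPM in the E12.5 PGC replicates. The highest d6PGCLC library lay just below the lowest E12.5 PGC library, so that the groups did not overlap, as for 51.9% of genes with at least 10 CPM. Means of 308 ± 15.9 and 345 ± 15.5 CPM gave a log2 fold change of -0.16 (SE 0.08, 95% CI -0.34 to 0.01, adjusted p = 0.153 by edgeR). Prmt5 did pass with DESeq2 (adjusted p = 0.0357), after the filter filterByExpr (adjusted p = 0.0482 by edgeR) and with an offset for transcript length (adjusted p = 0.0129 by edgeR), and in none of the 8 fits that left out 1 library.

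Wdr77 (Entrez 70465; chromosome 3, 105959498 to 105969760), the WD-repeat protein that holds substrates for Prmt5, was at 142, 138, 151 and 145 CPM in d6PGCLCs and at 158, 149, 144 and 142 CPM in E12.5 PGCs. The groups overlapped, the SD within each was 3.72% and 4.85% of the mean, and the log2 fold change was -0.04 (95% CI -0.22 to 0.14, adjusted p = 0.938 by edgeR). Leaving out 1 library gave -0.07 to -0.01, the lowest without d6PGCLC replicate 3 and the highest without E12.5 PGC replicate 1. The ratio of Wdr77 to Prmt5 in RPKM ranged from 0.821 to 0.949 over the d6PGCLC libraries and from 0.730 to 0.876 over the E12.5 PGC libraries. The means of 0.886 ± 0.0648 and 0.813 ± 0.0609 (SD, n = 4) differed by 0.12 on the log2 scale, and the ranges overlapped.

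Prmt7 (Entrez 214572; chromosome 8, 106211054 to 106251694), the type III enzyme, fell by a margin that rested on single libraries. Its level was 30.0, 34.9, 23.6 and 21.6 CPM in d6PGCLCs and 37.8, 34.2, 34.9 and 36.9 CPM in E12.5 PGCs. The d6PGCLC libraries spread widely (27.5 ± 6.11 CPM) and replicate 2 lay among the E12.5 PGCs (36.0 ± 1.68 CPM). The log2 fold change was -0.39 (SE 0.15, 95% CI -0.69 to -0.08) with an adjusted p of 0.0481 by edgeR. It no longer passed without d6PGCLC replicate 3 (-0.32, adjusted p = 0.152 by edgeR) or replicate 4 (-0.29, 0.173), or without E12.5 PGC replicate 1 (-0.36, 0.0994), 2 (-0.41, 0.0653), 3 (-0.40, 0.0861) or 4 (-0.37, 0.109).

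As a share of the summed RPKM of the 8 enzymes, type I transcripts made up 81.3 ± 1.62% in d6PGCLCs and 81.1 ± 0.975% in E12.5 PGCs (SD, n = 4). Type II, which among the 8 is Prmt5 alone, made up 15.2 ± 1.13% and 14.9 ± 0.648%, and type III 3.51 ± 0.742% and 4.03 ± 0.350%. Prmt9, a second type II enzyme that is described below, is not part of these shares. The ranges of each type overlapped between the groups. By counts, without division by length, type II made up 24.8 ± 1.16% and 25.0 ± 0.655%, so that its difference turned from 0.31 to -0.26 percentage points, both smaller than the SD between libraries. Within type I, the share of Prmt3 was 7.41 to 8.15% in d6PGCLCs and 10.3 to 12.1% in E12.5 PGCs, without overlap, while that of Carm1 was 14.7 ± 1.95% and 12.6 ± 1.33%. The summed level was 583 to 636 RPKM in d6PGCLCs and 649 to 739 RPKM in E12.5 PGCs. These shares are descriptions of transcripts and carry no test, and enzyme activity was not measured.

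**Figure D3:**
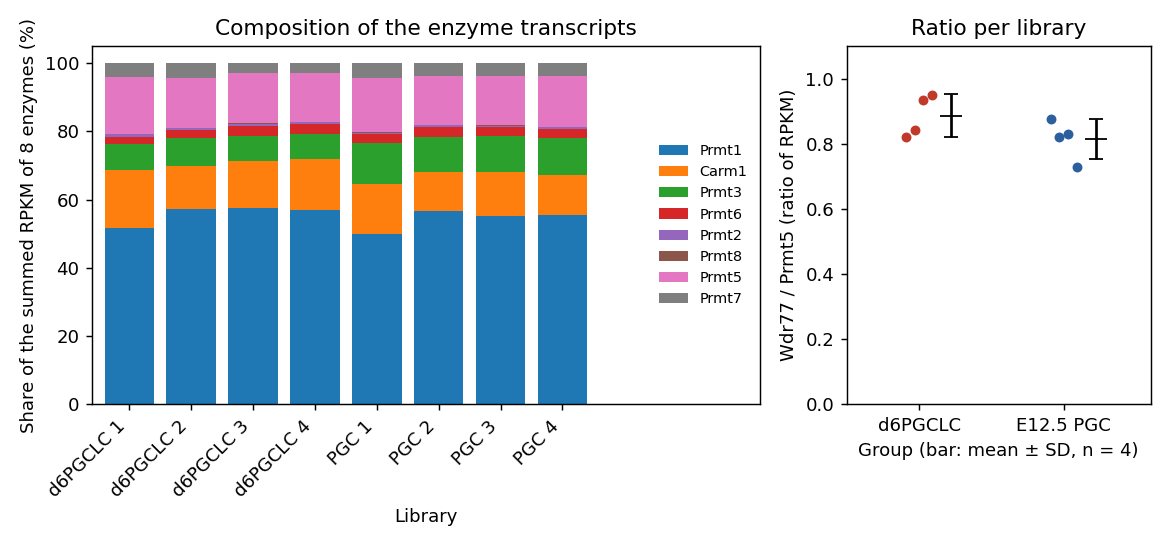
Left, share of each of the 8 enzymes in their summed RPKM (%), with 1 stacked bar per library. Right, ratio of Wdr77 to Prmt5 in RPKM, with 1 point per library and the mean with its SD for each group of 4. Prmt1 makes up most of each bar, the green Prmt3 segment is thicker in each PGC bar (10.3 to 12.1%) than in each d6PGCLC bar (7.41 to 8.15%), and the ratios of the 2 groups overlap.

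Of the genes with at least 10 CPM, those whose pattern over the 8 libraries was most like that of Prmt5 were Itm2c (Pearson r = 0.971 on log2 CPM), Polh (0.963) and Wdr37 (0.960), out of 8181 genes. Wdr77 was most like Fn3krp (0.936), Leng8 (0.916) and Atg16l1 (0.912), and the value between Prmt5 and Wdr77 was 0.0904. The 8 points share their groups, so that any gene lower in d6PGCLCs resembles Prmt5 to some extent.

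Genes around arginine methylation were examined as 9 lists, of which 62 of 69 genes were in the table. Absent from it were Snrpd3, Ncl, Rps2, Mat2a, Mtrr, Adk and Jmjd6, so that nothing can be said of these. Of the 62, 9 rose (14.5%), 27 fell (43.5%) and 26 did not pass, beside the 16.1% and 15.4% of all genes and the 28.4% and 25.7% of genes with at least 10 CPM given above. All 3 further methyltransferases of the list passed. Prmt9, a second type II enzyme, fell from 101 ± 12.2 to 58.3 ± 8.68 CPM (log2 fold change -0.80, adjusted p = 1.52e-05 by edgeR). Mettl23, which acts on histone H3 in oocytes, fell from 331 ± 19.1 to 243 ± 39.6 CPM (-0.45), and Ndufaf7, a mitochondrial enzyme, rose from 16.4 ± 2.08 to 21.6 ± 1.52 CPM (0.40, adjusted p = 0.0449 by edgeR). This increase was lost in 11 of 20 alternatives, among them with library size alone and without d6PGCLC replicate 2, 3 or 4 or E12.5 PGC replicate 1, 3 or 4.

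Partners of the enzymes moved in both directions. Prdm1, which encodes Blimp1, rose in d6PGCLCs from 192 ± 18.1 to 444 ± 43.6 CPM (log2 fold change 1.21, adjusted p = 2.11e-09 by edgeR). The d6PGCLCs may have been sorted on a Blimp1 reporter, and the part of this was not tested. Coprs, which recruits Prmt5 to histones, fell from 90.0 ± 8.61 to 57.0 ± 7.23 CPM (-0.66). Clns1a (pICln), which brings Sm proteins to the methylosome, fell from 186 ± 11.7 to 153 ± 22.2 CPM (-0.28, adjusted p = 0.0426 by edgeR) with overlapping groups. Riok1, the alternative partner of Prmt5, did not pass at 10.8 ± 2.49 and 8.65 ± 0.462 CPM (0.33, 95% CI -0.06 to 0.73), and neither did the Prmt1 partners Btg1 and Btg2. Of these 6 genes, 1 fell in place of 2 without d6PGCLC replicate 3 or 4 or E12.5 PGC replicate 2 or 3. The same held without E12.5 PGC replicates 2 and 4 together. Without E12.5 PGC replicate 2, 2 rose in place of 1.

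Substrates outside the germ line changed by less than 2-fold. The shares given for them stand beside 28.4% higher and 25.7% lower of genes with at least 10 CPM. Of 4 Sm, Lsm and coilin genes, Snrpb fell from 624 ± 16.8 to 388 ± 43.1 CPM (log2 fold change -0.69) and Lsm4 fell (-0.31), and 2 did not pass. Only 1 of the 4 fell without d6PGCLC replicate 4 or E12.5 PGC replicate 2 or 4, or without E12.5 PGC replicates 2 and 4 together. By contrast, 3 of the 4 fell in 5 of 20 alternatives, among them without d6PGCLC replicate 2 or E12.5 PGC replicate 1. In 3 of 20 alternatives 1 of the 4 rose. Of 8 RNA-binding substrates of type I enzymes, 3 fell, among them Taf15 (-0.54) and Hnrnpa2b1, the latter from 2147 ± 94.2 to 1706 ± 43.2 CPM (-0.33), Hnrnpa1 rose (0.36), and 4 did not pass. Of 9 substrates and fellow coactivators of Carm1, 5 fell (55.6%), among them Crebbp (-0.61) and Ncoa1 (-0.60). The 2 that rose (22.2%) were Med12 (0.53) and the poly(A)-binding protein gene Pabpc1, from 2047 ± 37.7 to 2463 ± 310 CPM (0.27). The count of 5 was 1 without d6PGCLC replicate 4 or without E12.5 PGC replicate 1 or 3, and 2 without d6PGCLC replicate 2 or 3. It was 4 without E12.5 PGC replicate 4 or without E12.5 PGC replicates 2 and 4 together. The count that rose was 1 without d6PGCLC replicate 1 or E12.5 PGC replicate 3, or without E12.5 PGC replicates 2 and 4 together.

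All 4 germline substrates (100%) and 6 of 10 Tudor readers (60%) fell, beside 15.4% of all genes and 25.7% of those with at least 10 CPM. These counts were the same in all 20 alternatives. Piwil2, a Piwi protein, fell from 364 ± 40.4 to 81.1 ± 26.2 CPM (log2 fold change -2.17) and the helicase Ddx4 from 760 ± 92.2 to 35.5 ± 6.60 CPM (-4.42, adjusted p = 1.29e-15 by edgeR). Piwil1 was at 0.297 against 1.79 CPM and Piwil4 at 0.317 against 2.29 CPM, with at most 5 counts of either in a d6PGCLC library. Of the Tudor genes 0 rose, with Tdrd9 (-3.32), Tdrd1 (-2.74), Tdrd7 (-2.22), Tdrd3 (-1.25) and Tdrkh (-1.19) past a log2 fold change of 1, and with Smndc1, a splicing factor, at -0.63. Snd1, at 559 ± 27.9 and 533 ± 29.5 CPM the most abundant of them (0.07, 95% CI -0.10 to 0.24), did not pass, nor did Smn1 (0.02) and Tdrd5 (-0.19), and Tdrd6 had at most 1 count in a library.

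**Figure D4:**
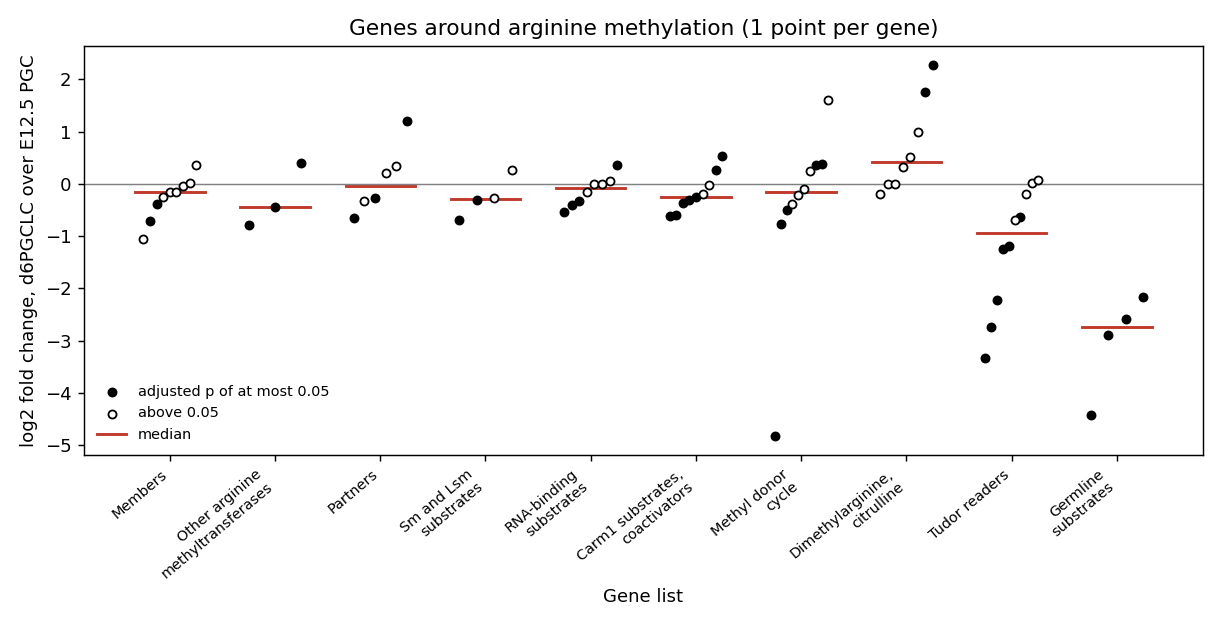
Log2 fold change of d6PGCLCs over E12.5 PGCs for the 9 genes (Members) and the 9 lists, with 1 point per gene, filled where the adjusted p is at most 0.05, and the median of each list in red. The 4 germline substrates all lie below -2 and 5 Tudor readers below -1 (the medians of these lists are set by Piwil1, Piwil4, Tdrkh and Tdrd6, of which all but Tdrkh had at most 5 counts in a d6PGCLC library), while the 9 genes themselves have a median of -0.16. The lowest point of the methyl donor cycle is Bhmt, and the open points of Prmt8 and Mat1a are likewise fitted values of genes at the limit of detection.

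In the cycle that supplies S-adenosylmethionine, 3 of the 10 genes in the table fell (30%), 2 rose (20%) and 5 did not pass. Of genes with at least 10 CPM, 25.7% fell and 28.4% rose. Mat2a, Mtrr and Adk of this cycle were absent from the table, and Mat1a had at most 1 count in a library. Mtr (methionine synthase) fell from 305 ± 44.7 to 179 ± 40.4 CPM (log2 fold change -0.77). Bhmt also passed, with 0 counts in each d6PGCLC library and at most 7 in an E12.5 PGC library. Mtap, of the methionine salvage pathway, rose (0.39) and so did Ahcyl1 (0.36), and the count of 2 was 1 in 13 of 20 alternatives, among them without d6PGCLC replicate 2 or E12.5 PGC replicate 2, 3 or 4. The count of 3 that fell was 2 in 5 of 20 alternatives, among them without E12.5 PGC replicate 2 and without replicates 2 and 4 together.

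Genes of the list on dimethylarginine and citrulline showed 2 increases (25%) and 0 decreases among 8. Beside these stand 16.1% higher and 15.4% lower of all genes, and 28.4% and 25.7% of genes with at least 10 CPM. Padi1, Padi2, Padi3, Padi4 and Padi6 had means below 10 CPM in both groups, and Agxt2 had 0 counts in every library. Without d6PGCLC replicate 3 or 4, 3 genes of the list rose in place of 2. Ddah2, named as a dimethylarginine dimethylaminohydrolase, rose from 22.0 ± 2.36 to 107 ± 35.9 CPM (log2 fold change 2.28, adjusted p = 2.00e-09 by edgeR). Breakdown of dimethylarginine was not measured. The d6PGCLC libraries ranged from 70.9 to 146 CPM and the E12.5 PGC libraries from 18.8 to 24.2 CPM. Padi2, which converts arginine to citrulline, rose from 1.55 ± 0.240 to 5.23 ± 0.936 CPM (1.75, adjusted p = 2.55e-05 by edgeR). The other paralog Ddah1 was at 18.3 ± 8.43 and 12.8 ± 2.54 CPM with overlapping groups and did not pass (0.52, 95% CI 0.00 to 1.03, adjusted p = 0.133 by edgeR).

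Exons of some of the 9 genes overlap those of other genes in GENCODE vM21, and whether the counting used strand is not given in the sources used here. On the opposite strand, Carm1 shares 1025 bases with Yipf2, Prmt6 shares 984 bases with C130013H08Rik, Wdr77 shares 337 bases with Atp5f1 and Prmt7 shares 247 bases with Smpd3. Prmt3 shares 144 bases with Gm26856 on the opposite strand and 79 with Gm44822 on its own, and Wdr77 shares 1389 bases with Gm42890 on its own strand. These bases were taken over all annotated exons of a gene, for Wdr77 4841 bases, where the counted isoform had 1758. Whether the shared stretches lie in the counted isoforms was not examined. Where they do, reads of a stretch shared on the same strand cannot be told apart, nor can those shared with the opposite strand if strand was ignored. Prmt1 and Prmt5 share no exonic base with another gene.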

How the data were processed

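The authors sequenced stranded poly(A) libraries as single-end 100 bp reads, aligned them with STAR to GRCm38 and deposited unnormalized counts, of reads with a unique position, per Entrez identifier on the exons of 1 isoform per gene chosen at random. Genes with overlapping promoters were removed at random, per the paper's methods. Of 21950 identifiers 21907 were matched to a RefSeq symbol, and 0 count columns lacked a sample. Counts were fitted in R 4.3.3 with edgeR 4.0.16 (TMM, glmQLFit and glmQLFTest, prior count 0.125, no filter), with Benjamini-Hochberg adjustment over all genes. CPM and RPKM used TMM-scaled library sizes, and RPKM the deposited exonic length. Correlations used log2(CPM + 0.1).

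The members and lists were chosen with earlier results of these data known. Named were the 9 genes, list genes past an absolute log2 fold change of 1, and the most abundant gene of each list. Other list genes are named, after their values were seen, because they make up a count of 5 or fewer or stand beside one. Among the alternatives were DESeq2 1.42.0, a likelihood ratio test, other scalings, filters, prior count and threshold, a replicate block, a length offset, and leaving out libraries. Values of some listed genes are not reported here.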

Additional observations from a re-analysis of the deposited data

How the results depend on the processing

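The finding that 0 of the 9 genes rose, and that 0 passed with a log2 fold change of 2 or more in either direction, held in all 20 alternatives. The count of genes that fell, 2, ranged from 1 to 2 when 1 library was left out. It was 1 at an adjusted p of at most 0.01 and 1 without E12.5 PGC replicates 2 and 4 together, with Prmt7 lost in each, and 3 with DESeq2 and with filterByExpr, which added Prmt5. It was 5 with the length offset, which added Prmt1 (-0.26, adjusted p = 0.00652), Prmt5 (-0.24, 0.0129) and Prmt6 (-0.36, 0.0228, all by edgeR), and the cause was not tested. Prmt3 kept its call and direction throughout. Carm1 turned from 0.03 to -0.0099 with library size alone, -0.0135 with upper quartile scaling, -0.0203 with the length offset and -0.0274 without E12.5 PGC replicates 2 and 4 together, and ranged from -0.0342 (without d6PGCLC replicate 1) to 0.0699 when 1 library was left out, with -0.00466 without E12.5 PGC replicate 2. Without 1 library, 3093 to 3636 genes of the table were higher and 2885 to 3430 lower. The log2 ratio of Wdr77 to Prmt5 differed by 0.0727 to 0.160. Same-numbered libraries of the groups correlated in their deviations by 0.434, 0.209, -0.106 and 0.0998, and those of unlike number by -0.336 to 0.246. The value of 0.434, between the libraries numbered 1, was the highest of all. The numbers were not taken as pairs, and shared handling of same-numbered libraries was not tested. With the replicate block 2 genes fell and 0 rose, as without it, and 3708 genes of the table were higher and 3562 lower. Prmt8 did not pass the filters on low counts, and depth limits what can be said of it.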
